A study of Rattus norvegicus with 10 samples.

Results

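The 145 transcripts described here are annotated (Ensembl) transcripts whose level was at least 4 times higher in the right than in the left hemisphere of most rats after a stroke. They were chosen from the measured values. A member had an identifier beginning with ENSRNOT, a mean of at least 1 FPKM over the 5 right libraries, and a difference of log2(FPKM + 0.1), right minus left, of at least 2 in at least 4 of the 5 rats. FPKM is the number of sequenced fragments of a transcript, normalized for its length and for the mapped reads of the library, and every difference given below is on the scale of log2(FPKM + 0.1). The members made up 0.479% of the 30242 annotated transcripts and 0.939% of the 15436 that reached a mean right FPKM of 1.

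The libraries came from brain tissue of both hemispheres of 5 male Sprague Dawley rats, 10 libraries in all, taken 24 hours after middle cerebral artery occlusion (MCAO). The artery was blocked with a suture and later reopened, and the tissue came from the middle slices of the brain. The study calls the profiled tissue cortex, and its first figure marks the sampled region. Each rat (P45, P52, P61, P71, P72) gave 1 library a side, and its left library was the paired control of its right library. No rat without surgery was included, so the left hemisphere is the uninjured side of an operated and anesthetized animal. The labels give the side but not which side was occluded. The right was taken as ischemic because a drawing in the study shows the suture on that side and its upregulated transcripts have higher right values. The deficit scale of its methods names the right paw, a deficit of left-sided lesions. Every difference here is right minus left, so its sign does not depend on which side was occluded. Were the left side the ischemic one, the members would be transcripts lower on the ischemic side.

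Focal ischemia kills neurons in the core of the territory of the blocked artery and stresses the cells around it. In the hours that follow, surviving neurons, glia and vessels switch on stress and early response genes, astrocytes and microglia become reactive, and leukocytes enter from the blood. RNA of a piece of brain tissue holds all of these cells together. More cells of a type and more RNA per cell therefore cannot be told apart in these libraries. The files identify transcripts by Ensembl transcript identifier, and no table used here pairs these with gene symbols, so the members' gene families, cell types and promoters were not analysed here and the tissue was not checked against marker genes. The exception is the transcript of Cd93, which the study names. At most 2 other identifiers are printed, and further members are given by their rank.

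As a group the members went from low to moderate levels. Their mean left FPKM had a median of 0.778 (quartiles 0.254 and 3.18), and their mean right FPKM a median of 7.16 (quartiles 3.03 and 21.5). All annotated transcripts with a mean right FPKM of at least 1 had medians of 12.5 on the left and 12.8 on the right. The choice asks for left values well below the right ones, so low left levels follow in part from it. The mean left FPKM was under 1 for 78 members and at least 1 for 67. Of the 145 members, 57 were below 1 FPKM in every left library, and 27 of these were at or above 1 FPKM in every right library. Another 38 were at or above 1 FPKM in all left libraries. At the upper end, 57 members had a mean right FPKM of at least 10 and 6 of at least 100, and at the lower end 23 had a mean right FPKM under 2.

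**Figure D1:**
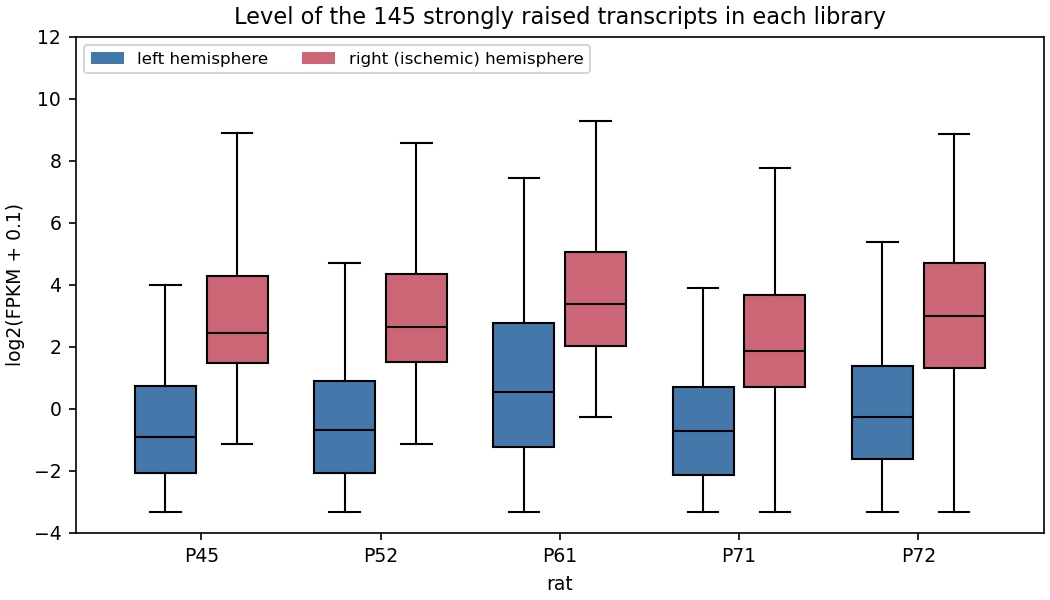
Level of the 145 transcripts as log2(FPKM + 0.1) in the left and right library of each of the 5 rats, where boxes span the quartiles with the median as a line, and whiskers reach the lowest and highest transcript. The left median of P61 lies above the other left medians, and the right median of P71 lies below the other right medians, while the boxes of a side overlap.

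The summed FPKM of the members was 218 in P71, 243 in P45, 286 in P52, 390 in P72 and 1136 in P61 on the left. On the right it was 1642 in P71, 3020 in P52, 3496 in P45, 3813 in P72 and 5342 in P61. Every right sum was above every left sum, and the ratio of right to left ran from 4.70 in P61 to 14.4 in P45. The choice of the members itself favours right sums above left ones. The sums were at most 0.216% of all FPKM of a left library and between 0.351% and 1.08% of a right library. The 6 members with the highest means carried 36.2% of the summed mean right FPKM.

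The mean difference of a member over the 5 rats ran from 1.77 to 7.75, with a median of 2.74 and quartiles of 2.50 and 3.63. It was at least 3 for 58 members, at least 4 for 25 and at least 5 for 4. For 3 members it was below 2, the remaining rat pulling the mean under the limit. These values follow from the choice of the members and were not tested. In a paired limma fit of the 20936 transcripts at a mean of 0.1 FPKM or more, 7.71% were called at an adjusted p under 0.05 and 5.52% were called higher on the right. Of the 145 members 141 were called higher on the right, from the same contrast that chose them. Leaving out 1 rat moved the number of transcripts called from 1614 to as few as 277, without P45, and as many as 1785, without P72. In 120 members all 5 right libraries lay above all 5 left libraries, a separation that the choice itself favours. The share was 7.78% among annotated transcripts whose right mean reached 1 FPKM. In the other 25 members the sides overlapped, and in 21 of these the left library of P61 was at or above a right library.

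**Figure D2:**
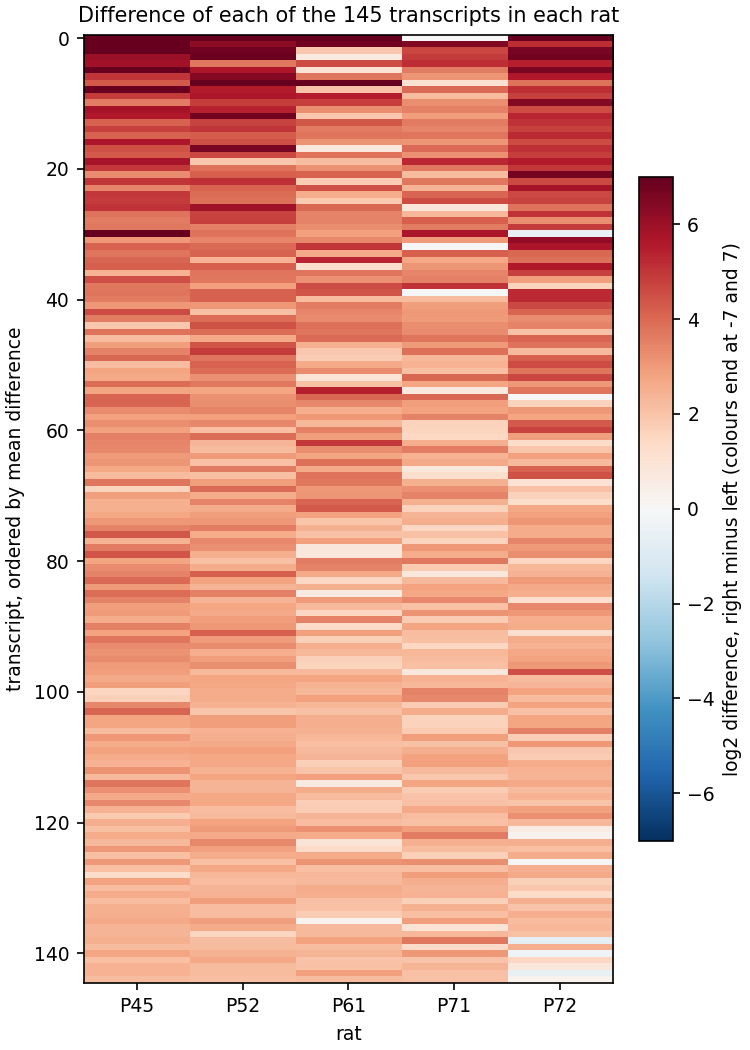
Log2 difference, right minus left, of each of the 145 transcripts (rows, ordered by mean difference) in each of the 5 rats (columns), with red for higher on the right, blue for higher on the left, and colours that end at 7 in either direction. The columns of P61, P71 and P72 hold most of the pale cells, with 31, 30 and 27 transcripts below 2.

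The highest mean right FPKM among the members was that of ENSRNOT00000031555. It was listed at 475 FPKM in P45, 384 in P52, 617 in P61, 215 in P71 and 468 in P72 on the right. On the left it was at 16.0 FPKM in P45, 26.2 in P52, 174 in P61, 8.86 in P71 and 17.5 in P72. The sides did not overlap, but the left library of P61 came close to the right library of P71. Its mean was 48.5 FPKM ± 70.4 on the left and 432 FPKM ± 147 on the right (SD, n = 5 each), and the mean difference was 3.98 ± 1.27 (SD, n = 5). P61 had the smallest difference, 1.82, and P45 the largest, 4.88.

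ENSRNOT00000073714 had the largest mean difference. It was at 84.4 FPKM in P45, 149 in P52, 141 in P61 and 156 in P72 on the right, and was listed at 0 in the right library of P71. On the left it was at 0.208 FPKM in P45 and 0.0933 in P52 and listed at 0 in P61, P71 and P72. In 4 rats nearly all of its signal was therefore on the right, and in P71 it was listed at 0 on both sides. Its mean difference of 7.75 had an SD of 4.45 (n = 5). Its size, and with it the rank, depends on the pseudocount because the left values lie at or near 0. Of the 1753 transcripts at 50 FPKM or more in each of the other 4 right libraries, 1 was listed at 0 in that of P71. For each of the other 9 libraries the transcripts at this level in the other 4 libraries of its side were taken. These were between 1628 and 1957 transcripts, and 0 of them were listed at 0. An exact 0 in FPKM can also be an estimate that failed, and the reads behind it were not analysed here.

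The transcript of Cd93 (ENSRNOT00000076493) was among the members with small differences, the 140th of 145 by mean difference and the 40th by mean right FPKM. Cd93 encodes a membrane receptor with a C-type lectin-like domain that is found on endothelial and myeloid cells, and the study lists this transcript as a processed transcript, a class without an open reading frame. It was at 21.8 FPKM in P45, 17.1 in P52, 33.2 in P61, 11.7 in P71 and 18.1 in P72 on the right. The left values were 4.57 FPKM in P45, 3.58 in P52, 7.30 in P61, 4.54 in P71 and 3.05 in P72. The sides did not overlap, P61 was highest on both, and P71 was lowest on the right. The difference was 2.10 ± 0.44 (SD, n = 5) and fell below 2 only in P71, at 1.34.

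**Figure D3:**
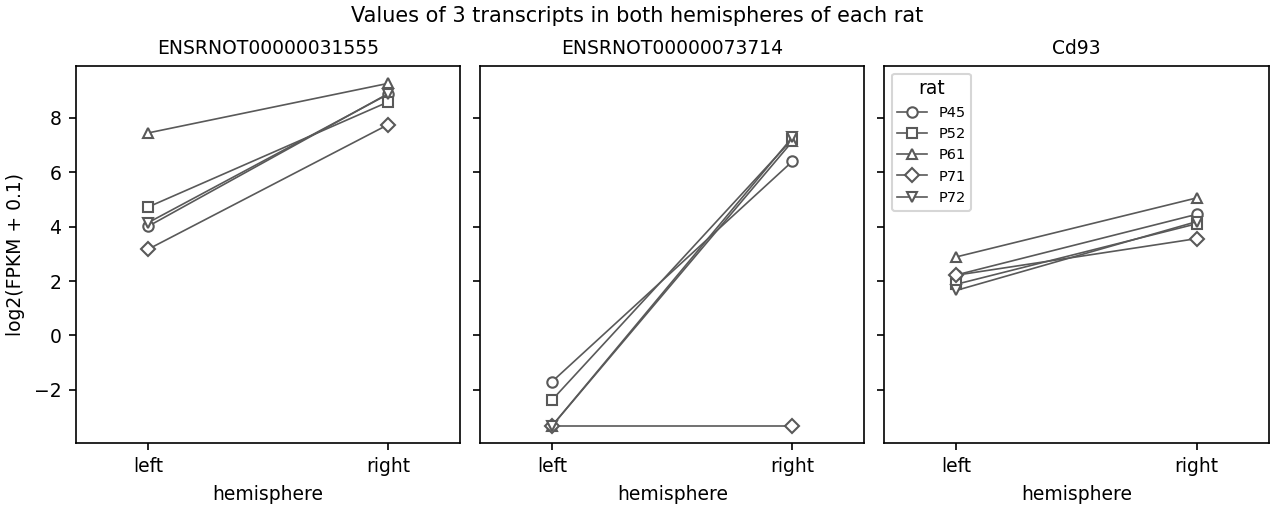
Level, as log2(FPKM + 0.1), of ENSRNOT00000031555, ENSRNOT00000073714 and the transcript of Cd93 in the left and right hemisphere, where each line joins both libraries of 1 rat. All lines rise except that of P71 for ENSRNOT00000073714, which was listed at 0 on both sides.

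The other members with a mean right FPKM of at least 100 differed among themselves in how the rats compared. The second by mean right FPKM was at 109 FPKM in P71, 222 in P52, 285 in P72, 391 in P45 and 602 in P61 on the right, against 5.26 to 11.8 FPKM in 4 left libraries and 64.0 FPKM in the left library of P61. The third was at 43.3 FPKM in P71, 94.7 in P52, 126 in P72, 212 in P61 and 262 in P45 on the right. The left library of P61 was high for both. The fourth, by contrast, was at 12.9 FPKM in the left library of P61, within the range of the other left libraries (2.25 to 22.3 FPKM), while its right library of P61 was the highest at 303 FPKM, against 65.6 to 98.0 in the others. The fifth was high on the left in P61 and in P72, at 43.6 and 41.3 FPKM against 11.9 to 14.6 in the other 3, and its differences were all between 1.65 and 2.91.

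Listed at 0 in all left libraries were 3 members, and 29 were listed at 0 in at least 1 left library. The first of the 3, which has the second largest mean difference, was between 3.54 FPKM in P72 and 21.4 FPKM in P45 on the right. The second was at 0.362 FPKM in the right library of P71 and between 2.66 and 4.94 FPKM in the other right libraries. The third was listed at 0 in the right library of P71 as well, and was between 1.44 and 5.14 FPKM in the other 4 rats. The differences of these members are set by the pseudocount, and so is their rank by difference. These counts hold exact zeros only, and values just above 0 act in the same way. The member ranked 40th by mean difference, for instance, was between 0 and 0.00014 FPKM on the left. A pair of members had identical values in all 10 libraries (0.301 to 0.607 FPKM on the left and 1.15 to 4.65 FPKM on the right), so they add 1 measurement and not 2.

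The limits of the choice did not fall at a gap in the values. The fourth largest difference of a member was 2.01 and 2.02 in the members nearest to the limit, and the transcripts nearest below it were at 1.997 and 1.998. One of those just outside was far more abundant than any member, with a mean of 452 FPKM on the left and 1415 FPKM on the right and a mean difference of 1.88. At the limit on the level, the mean right FPKM was 1.03 for the nearest member and 0.996 for the nearest transcript below. With the same limits in the opposite direction (mean left FPKM of at least 1, lower on the right by 2 or more in 4 of 5 rats) 3 of 15009 annotated transcripts were found. Among lncRNAs assembled by the authors, 3 of the 557 with a mean right FPKM of at least 1 met the limits of the members (0.539%), and 2 met them in the opposite direction.

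Because all 5 rats took part in the choice, it was repeated 5 times with 1 rat left out, asking for a difference of at least 2 in at least 3 of the other 4 rats and a mean right FPKM of at least 1 in these 4. Between 174 and 212 transcripts were chosen, and their difference was read in the rat left out. Its median was 2.90 in P45, 2.75 in P52, 2.42 in P72, 2.22 in P61 and 2.09 in P71, while all annotated transcripts at that level had medians between -0.02 and 0.01. In every rat left out, between 92.1% and 97.2% of the chosen transcripts were higher on the right, against 47.4% to 50.7% of all annotated transcripts. A difference of at least 2 was found for 81.0% of the chosen transcripts in P52, 78.1% in P45, 59.7% in P72, 57.7% in P61 and 54.2% in P71. The share over all annotated transcripts lay between 2.21% and 2.85%. The 5 choices share rats with each other and transcripts are not independent replicates, so no p is given.

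**Figure D4:**
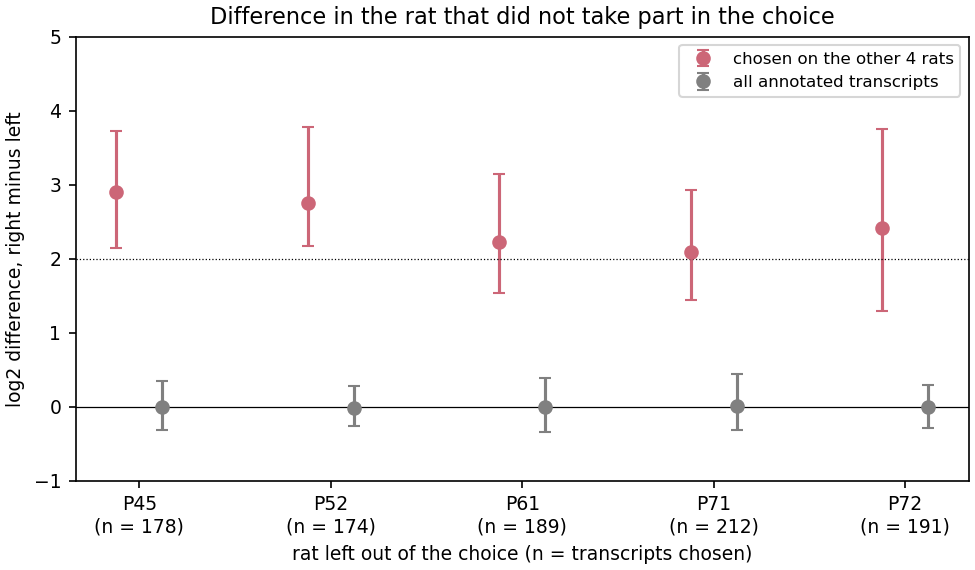
Log2 difference, right minus left, in the rat left out, for transcripts chosen on the other 4 rats (red) and for all annotated transcripts at the same level (grey), where points are medians, bars the quartiles, and the dotted line marks the limit of 2. All 5 red medians lie between 2.09 and 2.90, and the grey medians lie near 0.

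The rats fell short of the limit on different sides. A member missed a difference of 2 in P61 in 31 cases, in P71 in 30, in P72 in 27, in P45 in 6 and in P52 in 3, and 48 members passed it in all 5 rats. For the members that missed it, each library of that rat was compared with the median of its side in the other rats. The medians were 2.56 on the left and 0.52 on the right in P61, -0.05 and -1.58 in P71, and 0.80 and -0.77 in P72. They were 0.23 and -0.89 in P45 and 1.59 and -0.12 in P52. These members were picked by their low difference in that rat. In P61 the left library was high. For transcripts chosen on the other rats, the left level of P61 was above the median of the other 4 left libraries by a median of 1.16 (quartiles 0.60 and 1.95), and its right level was above the other right libraries by 0.61. In P71 the right library was low, with a median of -1.03 (quartiles -1.75 and -0.66) against the other right libraries, and the left was at -0.26. For the transcripts chosen without P72, its left library stood at 0.40 and its right at -0.13. In P45 the values were -0.25 and -0.28, and in P52 -0.07 and -0.09. Over all annotated transcripts the medians lay between -0.03 and 0.02 on both sides of every rat.

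**Figure D5:**
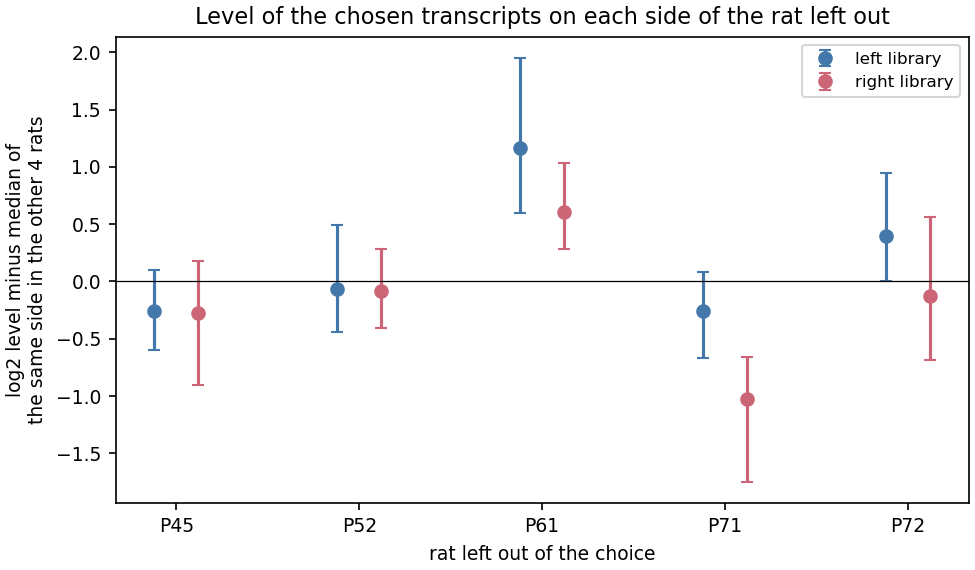
Level of the transcripts chosen on the other 4 rats, in the left (blue) and right (red) library of the rat left out, as the log2 difference from the median of the same side in the other 4 rats (points are medians, bars the quartiles). P61 lies above 0 on both sides, more so on the left, and the right library of P71 lies lowest at -1.03.

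Of the 189 transcripts chosen without P61, 73.0% were higher in the left library of P61 than in the other left libraries, against 25.3% of all annotated transcripts. Chosen in the same way, the share was 27.2% for P72, 8.62% for P52, 4.72% for P71 and 4.49% for P45. The choice favours low left and high right values in the rats used. The share over all annotated transcripts carries no such choice and is not a like baseline. The rise in the left library of P61 was uneven among the 145 members. Its level minus the median of the other left libraries ran from -2.08 to 6.12 with a median of 1.02. It was at least 2 for 32 members and at least 1 for 74, and it was at or below 0 for 21. The members with the third, the fourth and the sixth largest mean differences were among those with the largest gaps. They were at 57.1, 20.1 and 40.2 FPKM in the left library of P61, and at no more than 1.60, 0.475 and 1.07 FPKM in the other left libraries. In P61 the latter 2 had differences of 0.67 and 0.93, below those in every other rat. Without the left library of P61, all 5 right libraries lay above the 4 remaining left libraries in 137 of the 145 members, against 9.74% of annotated transcripts at a mean right FPKM of at least 1. This library was left out after its values were seen, and leaving out any library can only keep or raise such a count. The choice of the members also favours right values above left ones, so the gap to the other transcripts follows in part from it. Of the left libraries that of P61 was the least deep, at 63.6% of the deepest library by the estimate of relative depth, and the part of depth in these values was not tested.

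On the right, P71 was the lowest library for 99 of the 145 members, and P61 or P72 the highest for 123. Of the other annotated transcripts with a mean right FPKM of at least 1, 27.9% were lowest in P71. In P61 19.7% of them were highest, and in P72 21.3%. Those transcripts were not chosen on the difference. Of the 212 transcripts chosen without P71, 69.3% were lower in its right library than in the other right libraries, against 28.7% of all annotated transcripts. The latter were not chosen on the other rats. Chosen in the same way, the share was 28.8% for P72, 15.2% for P45, 6.90% for P52 and 3.17% for P61. The shortfall of P71 was broad. It was at least 1 on the log2 scale for 68 members, and 14 members were at or above the median of the other right libraries. Its relative depth, 77.5%, lay within the range of the right libraries (59.6% to 79.3%), and the part of depth in the shortfall was not tested. The members had a median SD over rats of log2(FPKM + 0.1) of 0.73 on the left and 0.73 on the right, against 0.21 and 0.28 over all annotated transcripts with a mean right FPKM of at least 1. The annotated transcripts were more abundant, with a median of 12.5 FPKM on the left against 0.778 for the members, and the part of level in the wider SD was not tested.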

How the data were processed

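RNA was sequenced from both hemispheres of 5 rats. Per the labels and the study's methods, the authors aligned reads to rn5 with TopHat2, used Cufflinks with Ensembl annotation for assembly and quantification, and deposited FPKM per transcript and library, without pooling. Cufflinks estimates how reads divide among isoforms, so the values of overlapping transcripts are not independent. FPKM holds no counts, so no count model or counting interval was used. Relative depth was estimated from the commonest ratio of low values between libraries and tested on simulated data. The largest contradiction between pairs was 0.117 (log2). Left libraries had 63.6% to 100% of the deepest (median 92.6%), right libraries 59.6% to 79.3% (median 70.9%), and the right was less deep in 4 of 5 rats.

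The members and lists were chosen with earlier results of these data known. Log2(FPKM + 0.1) of the 20936 transcripts reaching a mean of 0.1 FPKM was fitted with limma 3.58.1 (R 4.3.3; eBayes with trend, the rat as a block, Benjamini-Hochberg adjustment), after a test on simulated data. Both libraries of a rat come from 1 animal, and the correlation of their deviations from the side means lay between -0.13 and 0.18. Between the left library of 1 rat and the right library of another, this correlation had a mean of -0.008. Counts and figures used Python 3.11.15, numpy 2.4.6, pandas 2.3.3, scipy 1.17.1 and matplotlib 3.10.9. Named were the members with the highest mean right FPKM and with the largest mean difference, and the one with a symbol from the study (Cd93). The others given by rank were chosen after their values were seen. The planned gene lists and promoter motifs could not be applied without symbols. The list of positions of assembled lncRNAs was not used.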

Additional observations from a re-analysis of the deposited data

Results flagged for a closer look

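Among the named members and the sums over members, 1 group of 5 had an outlying library. Dixon's ratio was taken on log2(FPKM + 0.1) with a critical value of 0.71, which chance passes in about 1 in 20 groups. It was the right library of P71 for ENSRNOT00000073714, listed at 0 against 84.4 to 156 FPKM in the other right libraries (ratio 0.916).

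Over both sides of all 145 members, 34 of 290 groups (11.7%) had such a library, against 6.93% of the groups of all annotated transcripts with a mean right FPKM of at least 1. The left library of P61 was the high one in 16 of the 34, and the right library of P71 the low one in 4. The 290 groups share the same 10 libraries, so their number was not tested.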

How the results depend on the processing

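The number of members, 145, was 47 with a pseudocount of 1, all of them among the 145. It was 180 with a pseudocount of 0.01, with all 145 among them. With FPKM rescaled to TPM it was 204, with 143 of the 145 among them. The FPKM of a library summed to between 468375 and 525515, so this rescaling also raised every value. The pseudocount and the limit on the level stayed the same, and their part in the higher count and median was not tested. It was 268 with a difference of at least 1.5, 41 with at least 3, 48 with all 5 rats required and 89 with a mean right FPKM of at least 5. Without 1 rat (at least 3 of the other 4) it was between 174 and 212. The median of the members' mean differences, 2.74, was 3.26 with a pseudocount of 0.01, 1.94 with a pseudocount of 1 and 3.02 with FPKM rescaled to TPM, which moved the median difference of all transcripts tested by -0.05 to 0.13 depending on the rat. Without 1 rat it lay between 2.74 and 2.87. The 1614 transcripts called by limma (1155 higher on the right, 459 lower) were 1622 with TPM (1325 higher, 297 lower). They became 982 without the trend and 521 in a paired test without moderation. Without 1 rat there were between 277 (without P45) and 1785 (without P72), with 468 without P52, 417 without P61 and 882 without P71. With no replicate block, both sides being taken as independent, 2148 were called, and the members' own values do not depend on the block. With a difference of at least 2 in all 4 other rats, the median in the rat left out was 3.28 in P45, 3.70 in P52 and 2.77 in P72, and with a pseudocount of 1 it fell below 2 in P61, at 1.87, and in P71, at 1.80. The share highest in the left library became 63.8% for P61 and 9.06% for P45 with TPM, and 1.94% for P45 at a mean left FPKM of at least 0.1. The cause of these shifts was not tested. The mean differences of the 3 named transcripts stayed above 0 and moved by less than their SD between rats in every alternative run. Transcripts near 0 FPKM are limited by depth, and their differences by the pseudocount.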
